A study of Homo sapiens with 11 samples.

Results

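The genes described here are 10 chemokine and inflammatory cytokine genes of epithelial cells, chosen by symbol: the neutrophil-attracting chemokines CXCL1, CXCL2, CXCL3 and CXCL8, the chemokine CCL20, the interleukins IL1A and IL1B, the cytokines IL6 and LIF, and the chemokine receptor CXCR4. All 10 were found among the 60676 genes of the count table, and 7 of them had enough reads to be tested. RNA was sequenced from RWPE1, an immortalized but non-tumorigenic line of human prostate epithelial cells, so every library comes from 1 cell line. Cells in normoxia (0 h, 3 libraries) were compared with cells moved to 1% oxygen for 6 h (3 libraries), 12 h (3 libraries) or 24 h (2 libraries). All groups grew in serum-free keratinocyte medium with pituitary extract and EGF. The medium of the hypoxic cells also held 10 mM HEPES buffer, so the effects of low oxygen, of the buffer and of further time in culture cannot be told apart. The labels do not say whether replicates were separate cultures, and p-values therefore measure the spread between these libraries, which may be technical.

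Chemokines are small secreted proteins that draw leukocytes along a gradient. CXCL1, CXCL2, CXCL3 and CXCL8 act on neutrophils through the receptor CXCR2, and CXCL8 through CXCR1 as well. CCL20 binds CCR6 on lymphocytes and dendritic cells. IL1A and IL1B are ligands of 1 receptor, IL1R1, whose signal reaches the transcription factor NF-kappaB. Epithelial cells store IL1A as an active precursor that is released on damage, whereas IL1B needs cleavage. IL6 and LIF signal through the shared subunit IL6ST and the factor STAT3. Many promoters of these genes bind NF-kappaB or AP-1, and several of their mRNAs are short-lived.

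CXCL8, CXCL1, CXCL3 and CXCL2 lie in 1 chemokine cluster on chromosome 4 of GRCh38. The start of CXCL1 is 128.874 kb from that of CXCL8, and CXCL3 and CXCL2 lie further along on the opposite strand. The stretches before the start sites are shown because CXCL1, CXCL2 and CXCL3 are near copies of each other there while their read counts differed. They are RefSeq sequences on GRCh38.p14, read 5′ to 3′ on the strand of the gene, with 120 bases for CXCL1 (chr4:73869273-73869392, plus strand), CXCL2 (chr4:74099196-74099315, minus strand) and CXCL3 (chr4:74038690-74038809, minus strand), and 250 bases for CXCL8 (chr4:73740319-73740568, plus strand). Capitals mark a match to the NF-kappaB consensus in the first 3 and to the AP-1 motif TGANTCA in CXCL8.
CXCL1: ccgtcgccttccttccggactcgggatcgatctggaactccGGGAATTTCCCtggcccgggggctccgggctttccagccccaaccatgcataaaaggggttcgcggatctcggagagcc
CXCL2: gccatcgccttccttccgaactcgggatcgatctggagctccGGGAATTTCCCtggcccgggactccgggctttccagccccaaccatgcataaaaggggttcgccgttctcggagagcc
CXCL3: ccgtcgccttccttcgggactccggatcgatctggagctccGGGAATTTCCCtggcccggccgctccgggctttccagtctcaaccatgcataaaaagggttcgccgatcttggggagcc
CXCL8: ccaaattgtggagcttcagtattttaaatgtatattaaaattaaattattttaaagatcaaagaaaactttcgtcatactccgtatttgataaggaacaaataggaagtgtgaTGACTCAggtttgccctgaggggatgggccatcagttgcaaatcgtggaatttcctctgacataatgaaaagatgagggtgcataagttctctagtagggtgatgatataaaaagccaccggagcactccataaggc

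Over 120 bases CXCL1 and CXCL2 were 93.4% identical, CXCL1 and CXCL3 90.8%, and CXCL2 and CXCL3 88.4%. The same stretch of CXCL8 was 46.7%, 45.3% and 47.4% identical to CXCL1, CXCL2 and CXCL3. In CXCL1, CXCL2 and CXCL3 the capitals span a pair of NF-kappaB matches, 1 on each strand, which are shifted by 1 base and otherwise overlap. Among 35116 human promoters of 250 bases before the start, 9.96% held the NF-kappaB consensus, 6.57% the AP-1 motif TGANTCA and 18.5% the hypoxia-inducible factor core ACGTG, each counted on both strands. CCL20 and IL6 also held the NF-kappaB consensus, and IL1B and CXCR4 held none of the 3 motifs in these windows. The consensus was searched without mismatches: the CXCL8 stretch holds tggaatttcc, which differs from it by 1 base and is not marked. A match describes letters only and does not show binding, and the lack of a match does not show its absence. The promoter table held no entry for LIF.

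The promoter of IL1A is shown because it was the only one of these windows with the hypoxia-inducible factor core. The stretch is chr2:112784494-112784613 on the minus strand of GRCh38.p14 (RefSeq), and capitals mark that core, read on the opposite strand, followed by the AP-1 motif.
IL1A: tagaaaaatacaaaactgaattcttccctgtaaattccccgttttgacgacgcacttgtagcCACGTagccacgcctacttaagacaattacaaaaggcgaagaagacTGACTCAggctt

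The libraries held between 27496009 and 49488345 counts. Prostate basal and epithelial markers were high throughout, with all 10 above 1 CPM (normalised read count, scaled for depth and composition by TMM). Their sums were 8914 to 11830 CPM at 0 h and 17900 to 23310 CPM at 24 h, mostly from KRT5 and KRT14. Single markers moved both ways: at 24 h 6 of the 10 were higher and 3 lower at adjusted p under 0.05 in edgeR. Of all tested genes 29.9% were higher and 31.3% lower. The mean of TP63 went from 241 CPM at 0 h to 85.6 at 24 h, and that of KRT14 from 1202 to 5280. Only CD14 and CSF1R of 8 leukocyte markers averaged above 1 CPM, and leukocyte marker sums were 8.87 to 16.2 CPM at 0 h and 6.54 to 27.6 CPM at 24 h, with TYROBP at 0 counts in every library. For fibroblasts 1 of 7 markers (COL1A1) and for endothelium 0 of 5 averaged above 1 CPM. The luminal marker KLK3 had no count in any library, while the basal keratin KRT5 was at 6072 CPM or more in each. All 6 hypoxia-responsive genes examined (among them CA9 and EGLN3) rose at each time. Between 10.2% and 10.35% of counts at 0 h came from the mitochondrial genome, against 4.30% to 6.78% in the 6 h and 12 h libraries. At 24 h it gave 1.74% in replicate 1 and 0.369% in replicate 2, and replicate 2 also had the smallest TMM factor, 0.539. The 24 h pair stood further apart than any other replicates of 1 time.

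Of the 10 genes, IL1A and IL1B dominated. Per kilobase of exon at 0 h, IL1A stood at 26.97 ± 2.08 CPM per kb (SD, n = 3) and IL1B at 8.20 ± 1.08. CXCL2 followed at 0.893 ± 0.144 CPM per kb and LIF at 0.564 ± 0.113, and these did not overlap. CXCL3 (0.204 ± 0.0577) and CXCL8 (0.190 ± 0.0696) did not differ beyond their spread. CCL20 was at 0.0474 ± 0.0344 CPM per kb, and CXCL1, CXCR4 and IL6 were at 0.0115 or below. Apart from IL1A and IL1B, no gene had more than 253 reads in a library.

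Relative to normoxia, LIF fell at all 3 hypoxic times, CXCL2 fell at 6 h and 12 h, and IL1A was lower at 6 h and 12 h but higher at 24 h. CXCL8 rose at 24 h. Of the 7 genes tested, 1 rose and 3 fell at 6 h (background 25.1% higher and 27.7% lower, 52.8% in either direction, of the 19981 genes tested). At 12 h again 1 rose and 3 fell (background 24.2% and 27.1%, 51.2% in either direction). At 24 h 3 rose and 1 fell (background 29.9% and 31.3%, 61.2% in either direction). Scaled by library size alone in place of TMM, 2 rose and 2 fell at 24 h. At each time 57.1% of the tested genes passed, which is near the share of all genes. The gene that rose at 6 h and 12 h was CXCR4, which is also among the 3 at 24 h. It passed the filter only through its hypoxic libraries and had to differ, so its call adds nothing to these counts. Without 24 h replicate 1, 0 rose and 2 fell at 24 h (LIF and IL1B). The 24 h group is then 1 library, assumed here and below to vary like the other groups. The 3 comparisons share the normoxic libraries and are not independent.

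**Figure D1:**
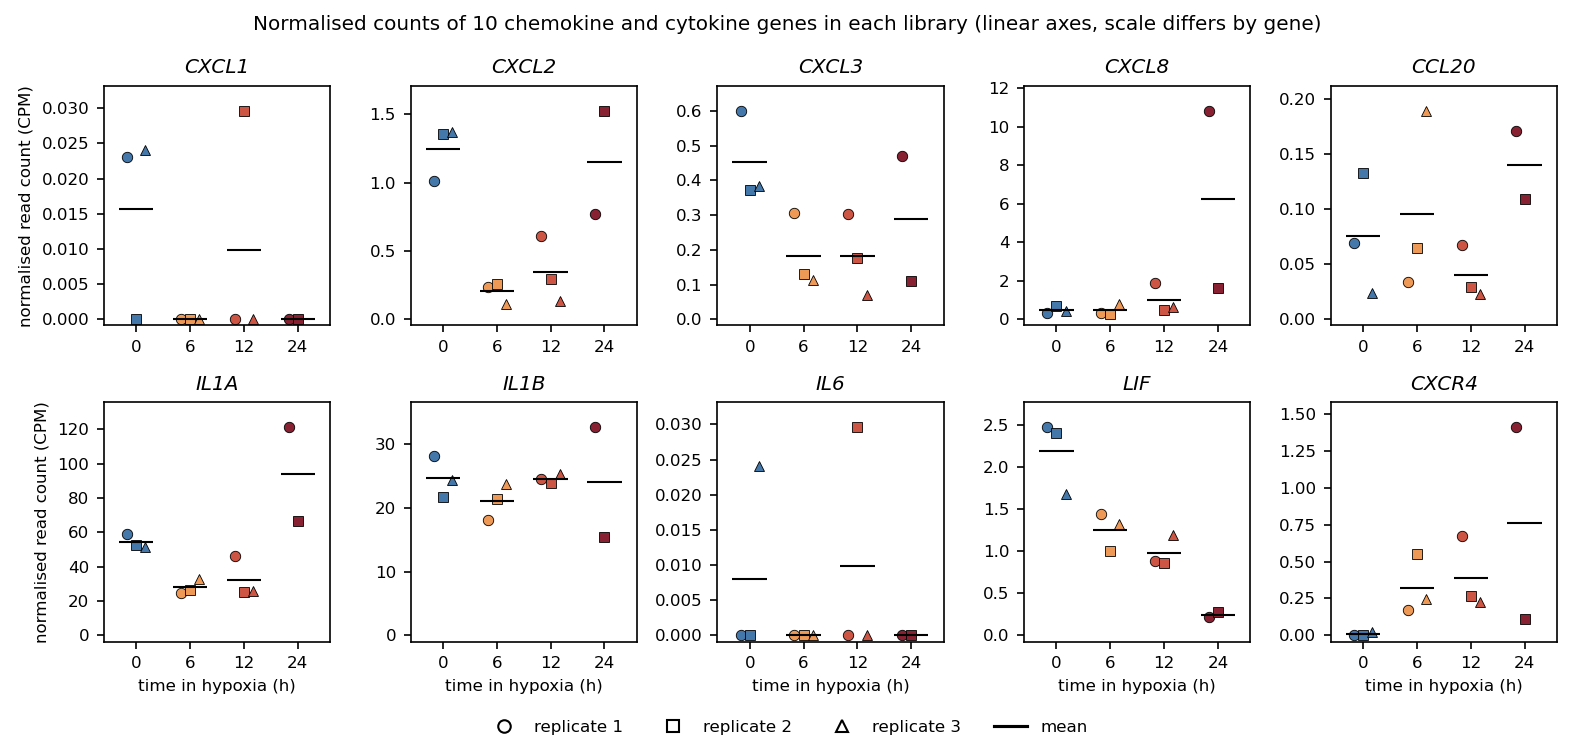
Normalised read count (CPM, vertical axes, linear and scaled for each gene) of each of the 10 genes in all 11 libraries, by hours at 1% oxygen. Points are libraries, the symbol gives the replicate number and the bar is the mean; the LIF points descend from between 1.68 and 2.47 at 0 h to 0.214 and 0.272 at 24 h, while the 24 h points of CXCL8 lie far apart at 10.8 and 1.63.

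CXCL2, a neutrophil chemokine, was at 1.02, 1.36 and 1.37 CPM in the normoxic libraries (44, 51 and 57 reads). At 6 h it was at 0.239, 0.259 and 0.114 CPM, at 12 h at 0.609, 0.296 and 0.137, and at 24 h at 0.770 and 1.53. Every 6 h and 12 h library lay below every normoxic one, and the 24 h libraries lay on either side of them. The level fell to 0.157 times that at 0 h after 6 h (log2 fold change -2.68 ± 0.49 SE, adjusted p = 0.0006). This and all further adjusted p-values come from the quasi-likelihood test of edgeR over all 11 libraries, adjusted by the Benjamini-Hochberg method. After 12 h it was 0.267 times that at 0 h (-1.91 ± 0.45, adjusted p = 0.00387). At 24 h the change was -0.14 ± 0.47 (adjusted p = 0.805), and library size alone gave a called -1.13 (adjusted p = 0.0392), where the median of all genes was -0.97.

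CXCL3, a close relative of CXCL2, was at 0.600, 0.373 and 0.384 CPM at 0 h. It was at 0.307, 0.130 and 0.114 CPM at 6 h, 0.304, 0.178 and 0.0685 at 12 h, and 0.470 and 0.109 at 24 h. The 6 h and 12 h libraries lay below all normoxic ones. The fitted log2 changes of -1.37 ± 0.55 at 6 h (adjusted p = 0.0514) and -1.38 ± 0.55 at 12 h (adjusted p = 0.0534) missed the threshold of 0.05, and both passed it with limma-voom (adjusted p = 0.0461 and 0.0395). Of 18 alternatives, 8 at 6 h and 9 at 12 h likewise gave no call. At 24 h the change was -0.57 ± 0.64 (adjusted p = 0.452).

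CXCL1, whose promoter shares the NF-kappaB match shown above, gave 2 reads at 0 h, 1 read at 12 h and none at 6 h or 24 h, over all libraries of each time. The 0 reads at 6 h allow up to 0.0266 CPM and those at 24 h up to 0.0719 CPM (3 counts over the group, counting error only). No change of CXCL1 was detectable at this depth. Parts of the 3 transcripts cannot be told apart by short reads: 7.56% of the 75-base windows of CXCL2, 4.57% of those of CXCL3 and 0.23% of those of CXCL1 occur in another of the 4 CXC chemokines, against 0 for CXCL8. For windows of 36 bases, the shortest trimmed reads kept, the shares were 20.2%, 8.05% and 10.2%, and again 0 for CXCL8. The authors' handling of such reads is not given in the sources used here, so the split of reads between CXCL1, CXCL2 and CXCL3 is uncertain.

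CXCL8 encodes interleukin 8, the neutrophil chemokine with its own promoter sequence, which held the AP-1 motif and a near match to the NF-kappaB consensus. Its normoxic libraries were at 0.346, 0.692 and 0.432 CPM. They overlapped with 0.307, 0.292 and 0.777 CPM at 6 h and with 1.86, 0.504 and 0.617 CPM at 12 h. At 24 h replicate 1 stood at 10.8 CPM (253 reads) and replicate 2 at 1.63 CPM (30 reads), both above all normoxic libraries. The 24 h level was 12.8 times that at 0 h (3.68 ± 0.72, adjusted p = 0.000763). Without 24 h replicate 1 the log2 change was 1.69 and the call was lost (adjusted p = 0.0551). The changes at 6 h (0.00 ± 0.68, adjusted p = 0.997) and 12 h (0.99 ± 0.71, adjusted p = 0.26) were not called.

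CCL20, which attracts CCR6-bearing cells, gave 9, 13, 4 and 6 reads in all at 0, 6, 12 and 24 h. Single libraries ranged from 0.0228 to 0.189 CPM, with every hypoxic time overlapping normoxia, and the gene was below the filter.

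IL1A was called in both directions over time, whereas no change of IL1B was called. IL1A was at 59.2, 52.8 and 51.3 CPM at 0 h, and at 24.8, 26.4 and 32.6 CPM at 6 h. At 12 h it was at 45.9, 25.03 and 26.0 CPM, and at 24 h at 121 and 66.5 CPM. No 6 h or 12 h library reached the normoxic range, and both 24 h libraries exceeded it. The level was 0.514 times that at 0 h after 6 h (-0.96 ± 0.25, adjusted p = 0.0069) and 0.593 times after 12 h (-0.75 ± 0.25, adjusted p = 0.025). After 24 h it was 1.73 times that at 0 h (0.79 ± 0.28, adjusted p = 0.0258).

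The 24 h rise of IL1A depended on single libraries, the filter and the scaling. Without 24 h replicate 1 it was 0.23 (adjusted p = 0.475), and it also missed the threshold without 0 h replicate 2 (0.76, adjusted p = 0.0685) or 0 h replicate 3 (0.74, adjusted p = 0.0727), or with at least 10 counts required in every library (0.65, adjusted p = 0.0663). With library size alone the change was -0.04 (adjusted p = 0.932), where the median of all genes moved to -0.97. The 12 h fall lost its call without 0 h replicate 1 (adjusted p = 0.075) or 2 (0.0513) or 12 h replicate 2 (0.089) or 3 (0.101).

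IL1B, by contrast, was at 28.1, 21.7 and 24.3 CPM at 0 h and at 18.0, 21.4 and 23.7 CPM at 6 h. It was at 24.5, 23.9 and 25.3 CPM at 12 h and at 32.6 and 15.5 CPM at 24 h. All hypoxic times overlapped normoxia. None of the changes was called: -0.23 ± 0.22 at 6 h (adjusted p = 0.404), -0.01 ± 0.22 at 12 h (adjusted p = 0.98) and -0.03 ± 0.25 at 24 h (adjusted p = 0.913). Without 24 h replicate 1 the 24 h change of IL1B was -0.73 (adjusted p = 0.00577), on replicate 2 alone, the library with 0.369% mitochondrial counts.

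The ratio of IL1A to IL1B reads within a library needs no scaling between libraries. It was 2.10, 2.44 and 2.11 at 0 h, 1.38, 1.24 and 1.38 at 6 h, 1.87, 1.05 and 1.03 at 12 h, and 3.72 and 4.30 at 24 h. The 6 h and 12 h ratios lay below all normoxic ones and the 24 h ratios above, in both 24 h libraries although these differed in the level of each gene. On the log2 scale the ratio differed from 0 h by -0.74 at 6 h and -0.81 at 12 h (both exact two-sided permutation p = 0.1, the smallest that 3 against 3 allow). At 24 h it differed by 0.85 (exact two-sided permutation p = 0.2, the smallest that 2 against 3 allow). No such p can pass 0.05 in this design.

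**Figure D2:**
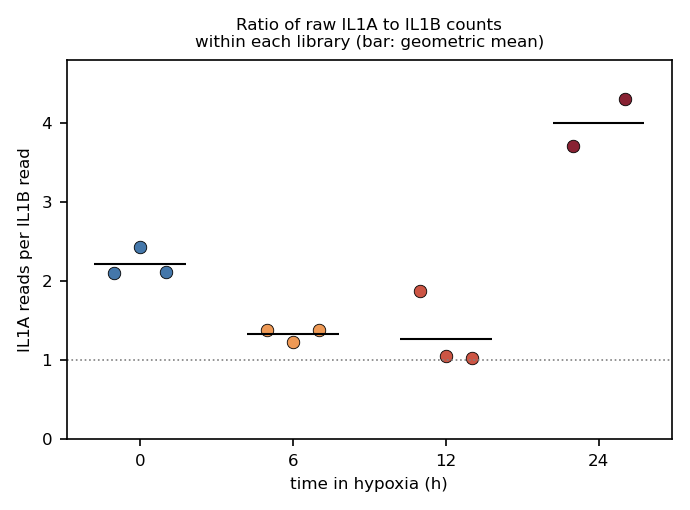
IL1A reads per IL1B read (vertical axis, raw counts) in each library, by hours at 1% oxygen. Points are libraries, bars are geometric means and the dotted line marks equal counts; the points fall from 2.10 to 2.44 at 0 h to between 1.03 and 1.87 at 6 h and 12 h, and stand at 3.72 and 4.30 at 24 h.

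LIF, an IL6-type cytokine, fell at every time and most at 24 h. It was at 2.47, 2.40 and 1.68 CPM at 0 h and at 1.43, 1.00 and 1.33 CPM at 6 h. It was at 0.879, 0.859 and 1.19 CPM at 12 h, and at 0.214 and 0.272 CPM at 24 h, which is 5 reads in each library. No hypoxic library overlapped with normoxia, and the 24 h libraries lay below all others. The level was 0.577 times that at 0 h after 6 h (-0.79 ± 0.25, adjusted p = 0.0172), 0.451 times after 12 h (-1.15 ± 0.25, adjusted p = 0.0026) and 0.112 times after 24 h (-3.16 ± 0.39, adjusted p = 2.55e-05). The 24 h change was -3.04 and -3.35 without either 24 h library in turn. The 6 h call was lost without 0 h replicate 1 (adjusted p = 0.0733), 0 h replicate 2 (adjusted p = 0.0616) or 6 h replicate 2 (adjusted p = 0.0716).

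The share of mitochondrial counts was likewise highest at 0 h and lowest at 24 h, and its part in the fall of LIF was not tested. In the annotation 4.37% of the exonic bases of LIF lie opposite an exon of LIF-AS1 or LIF-AS2. The kit marks strand, but the strand setting of the counting is not given in the sources used here. In bulk RNA, fewer cells that express LIF and less LIF RNA per cell cannot be told apart.

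IL6 itself gave 1 read at 0 h, 1 at 12 h and none at 6 h or 24 h, which allow up to 0.0266 and 0.0719 CPM. It was not measurable at this depth, and 9.91% of its exonic bases lie opposite exons of IL6-AS1 or STEAP1B.

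CXCR4, the receptor of CXCL12, gave 0, 0 and 1 reads in the normoxic libraries. It gave 5, 17 and 13 reads at 6 h (0.171, 0.551 and 0.246 CPM), 20, 9 and 10 at 12 h (0.676, 0.267 and 0.228 CPM), and 33 and 2 at 24 h (1.41 and 0.109 CPM). Every hypoxic library exceeded every normoxic one, though 24 h replicate 2 did so by 1 read. The ratio of summed CPM to 0 h was 38.0 at 6 h (exact 95% interval 6.38 to 1542), 44.6 at 12 h (7.55 to 1806) and 103 at 24 h (17.3 to 4172), covering counting error only. These values are a description, since the gene was tested only because its hypoxic libraries were high. Without 24 h replicate 1 the 24 h ratio was 13.4 (0.695 to 788). CXCR4 is known from leukocytes, and of their 8 markers 3 were tested. At each time 1 was called higher and 1 lower (background at 6, 12 and 24 h 52.8%, 51.2% and 61.2% in either direction). The lower one was PTPRC, which passed the filter only through its normoxic libraries and had to differ, so its fall is a description. PTPRC gave 25 reads at 0 h and 4, 2 and 0 at 6, 12 and 24 h. CD14 averaged 0.522 CPM at 0 h and 1.93, 2.29 and 2.67 later, and CSF1R 11.5 CPM at 0 h and 7.496, 14.2 and 14.2 later. The sum over the list, given above for 0 h and 24 h, lay between 6.42 and 14.6 CPM in the 6 h libraries and between 12.7 and 20.9 CPM in the 12 h libraries, and its part in the CXCR4 counts was not tested.

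**Figure D3:**
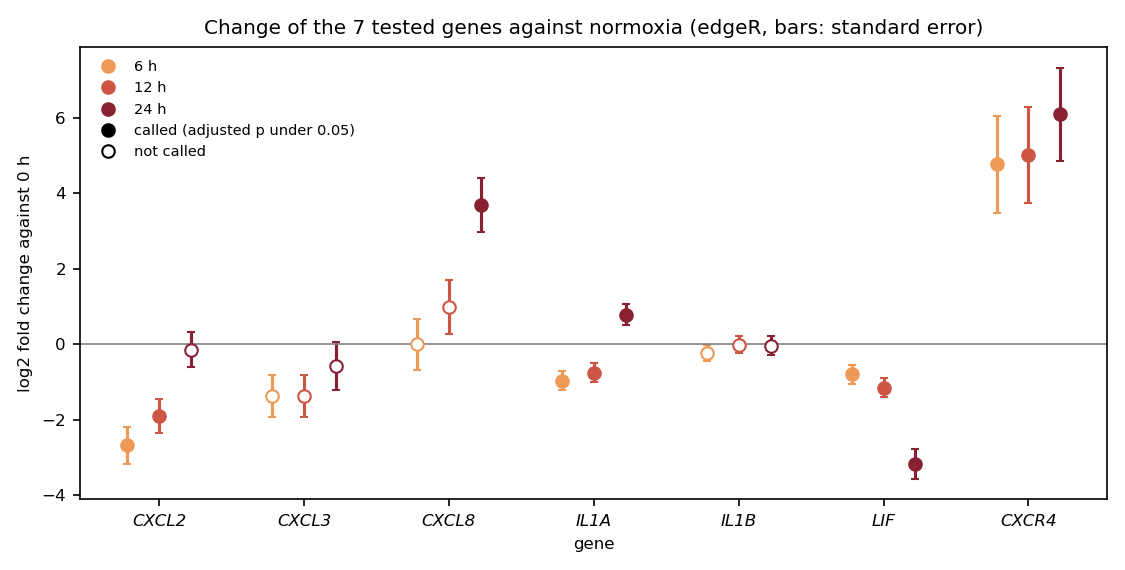
Log2 fold change against 0 h (vertical axis) of the 7 tested genes at 6, 12 and 24 h, with standard errors as bars and filled points for adjusted p under 0.05 in edgeR. LIF lies below 0 at all times (-0.79, -1.15 and -3.16), IL1A crosses from -0.96 to 0.79 and IL1B stays near 0; the CXCR4 values rest on 1 normoxic read and depend on the fit's prior.

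Separation of the libraries was common among all genes. Among the 7 tested genes 5 did not overlap at 6 h (69.6% of all tested genes), 5 at 12 h (72.3%) and 4 at 24 h (73.0%). CXCR4 is counted at each time, and it had to differ because it passed the filter only through its hypoxic libraries.

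Between consecutive hypoxic times the genes differed in the fit over all libraries only from 12 h to 24 h. From 6 h to 12 h edgeR called 0 of the 7 genes (background 1.88% higher and 3.07% lower, 4.95% in either direction), and limma-voom and DESeq2 also called 0. The number with an unadjusted edgeR p under 0.05 was 0 too. Only IL1B did not overlap between these times (background 31.6%).

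From 12 h to 24 h, 3 genes rose and 1 fell (background 15.1% higher and 13.3% lower, 28.4% in either direction). CXCL2 rose 3.39-fold (1.76 ± 0.52, adjusted p = 0.0251), CXCL8 6.47-fold (2.69 ± 0.68, adjusted p = 0.0128) and IL1A 2.91-fold (1.54 ± 0.28, adjusted p = 0.00301). LIF fell to 0.247 times its 12 h level (-2.01 ± 0.41, adjusted p = 0.00483). The 12 h and 24 h libraries of CXCL2, IL1A and LIF did not overlap (background 49.1%), but 12 h replicate 1, at 1.86 CPM of CXCL8, exceeded 24 h replicate 2, at 1.63.

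These 4 calls rested on the spread shared across all 11 libraries. When only the 12 h and 24 h libraries entered the fit, 0 were called, with changes of 1.72 for CXCL2 (adjusted p = 0.12), 2.67 for CXCL8 (adjusted p = 0.0902), 1.52 for IL1A (adjusted p = 0.0705) and -2.04 for LIF (adjusted p = 0.0658). CXCL2 and CXCL8 also lost their calls without 12 h replicate 2 or 3, CXCL2 with library size alone (1.24, adjusted p = 0.078) or without 24 h replicate 2 (1.21, adjusted p = 0.2) and CXCL8 without 24 h replicate 1 (0.73, adjusted p = 0.413).

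Within a time, 1 library often led several of the genes. At 12 h replicate 1 was highest for CXCL2, CXCL3, CXCL8, CCL20, IL1A and CXCR4, and not for IL1B or LIF. At 24 h replicate 1 was above replicate 2 for CXCL3, CXCL8, CCL20, IL1A, IL1B and CXCR4, and below it for CXCL2 and LIF. The 24 h replicate with the lower values of those genes was the one with the lower mitochondrial share, 0.369%, and its part in these differences was not tested.

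**Figure D4:**
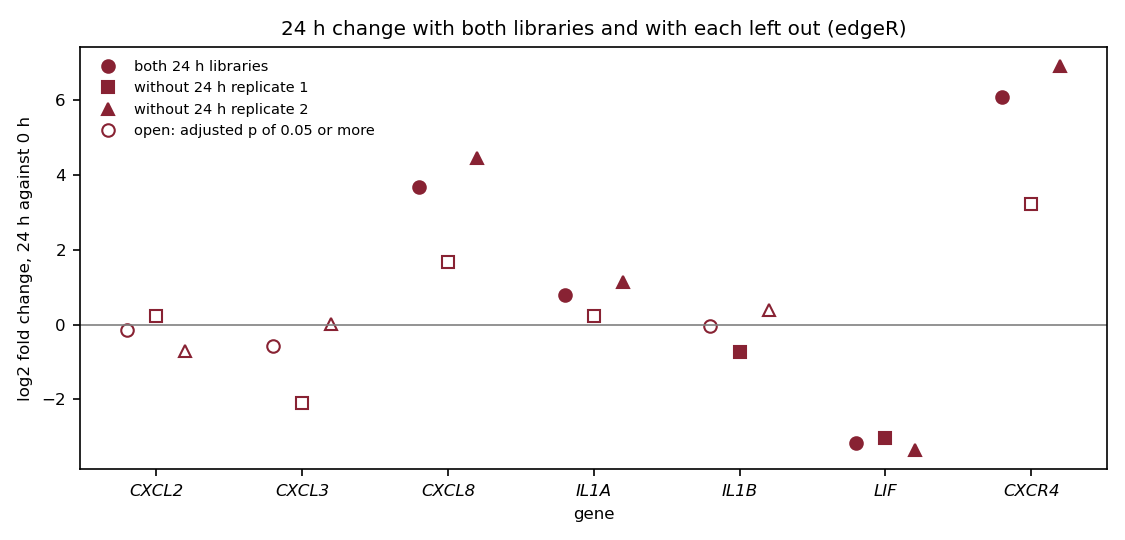
Log2 fold change at 24 h against 0 h (vertical axis) of the 7 tested genes with both 24 h libraries, without replicate 1 and without replicate 2. Open symbols have an adjusted p of 0.05 or more in edgeR; LIF stays between -3.04 and -3.35, while CXCL8 moves between 1.69 and 4.45 and IL1A between 0.23 and 1.14.

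The order of the levels at 24 h differed from that at 0 h. Per kilobase of exon IL1A (46.5 ± 19.2 CPM per kb, SD, n = 2) and IL1B (7.99 ± 4.03) still led. CXCL8 came next at 2.41 ± 2.51 and CXCL2 at 0.821 ± 0.382, which overlapped. CXCR4 (0.262 ± 0.317), CXCL3 (0.131 ± 0.115), CCL20 (0.0878 ± 0.0275) and LIF (0.0628 ± 0.0107, on 5 reads in each library) overlapped too.

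Pathway genes around these ligands were read from lists of 95 other genes, of which 72 were tested. At 6 h 20 rose and 24 fell (61.11% called), at 12 h 23 rose and 20 fell (59.72%), and at 24 h 22 rose and 19 fell (56.94%). These shares are near the background of all tested genes. That background was 25.1% higher and 27.7% lower at 6 h (52.8% in either direction) and 24.2% and 27.1% at 12 h (51.2%). At 24 h it was 29.9% and 31.3% (61.2%), and the counts of each list below stand against the same shares. Some of these genes, marked below, passed the filter only through their normoxic or only through their hypoxic libraries. Scaling by library size alone gave 9 and 26, 8 and 27, and 8 and 45. That scaling lowered the median log2 change of all genes to -0.32, -0.50 and -0.97 at 6, 12 and 24 h, against -0.00, -0.03 and -0.06 with TMM.

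The receptors of the CXC chemokines were scarce. CXCR1 gave 0, 3, 5 and 2 reads in all at 0, 6, 12 and 24 h, CXCR2 gave 21, 5, 12 and 1, and CCR6, the receptor of CCL20, gave none. CXCL12, the ligand of CXCR4, gave 1 read in all libraries together. Of 7 chemokine receptors listed beside CXCR4, 2 were tested: ACKR3, a scavenger of CXCL12, rose at 24 h (from 1.67 ± 0.814 to 3.83 ± 1.11 CPM, log2 change 1.21, adjusted p = 0.0274), and ACKR2, a decoy receptor of CC chemokines, fell at all 3 times and went from 59 reads at 0 h to 20 at 6 h, 19 at 12 h and 2 at 24 h. The ACKR2 values are a description, since the gene was tested only because its normoxic libraries were high. The ACKR3 rise was not called with library size alone (0.34, adjusted p = 0.553).

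Of 15 other chemokines listed, 5 were tested. The few called, named after their values were seen, were CXCL16 (higher at 6 h, 0.72, and at 12 h, 0.45), CCL28 (lower at 6 h, -0.97) and CCL22 (lower at 24 h, on 43 reads at 0 h and 1 at 24 h). CCL22 too was tested only because its normoxic libraries were high, and its fall is a description. Under library size alone 1 rose and 2 fell at 6 h, and 0 rose and 3 fell at 12 h and at 24 h.

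Among 12 tested interleukin 1 receptors, inhibitors and relatives, 3 rose and 4 fell at 6 h, 4 rose and 3 fell at 12 h, and 3 rose and 2 fell at 24 h. Library size alone in place of TMM left 2 higher and 5 lower, 1 higher and 6 lower, and 1 higher and 8 lower. IL1R1, the signalling receptor of IL1A and IL1B, fell from 4.85 ± 0.553 CPM to 2.02 ± 0.402, 2.15 ± 0.458 and 1.64 ± 0.161 at 6, 12 and 24 h (log2 changes -1.26, -1.16 and -1.56, adjusted p = 0.000535, 0.00107 and 0.000371). IL1RN, the receptor antagonist, was at 63.2 ± 8.90 CPM at 0 h and 71.0 ± 4.28 at 6 h, and rose to 112 ± 9.16 at 12 h and 110 ± 0.921 at 24 h (0.83 and 0.80, adjusted p = 0.000354 and 0.000558), although with library size alone these changes were 0.36 and -0.12 and neither was called. IL18, an interleukin 1 relative, rose at all 3 times (0.73, 0.88 and 1.84). Of the signal carriers below the receptor, the kinase IRAK4 fell at all 3 times (-1.64, -1.50 and -1.38), and the ligase TRAF6 rose (1.09, 0.85 and 0.78) but was called at no time with library size alone (0.77, 0.38 and -0.02).

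Among 13 tested genes of the IL6 family and the STAT3 pathway, 5 rose and 3 fell at 6 h, 6 rose and 4 fell at 12 h, and 4 rose and 3 fell at 24 h. The counts under library size alone were 2 and 3, 2 and 4, and 2 and 8. While LIF fell, IL11 rose from 1.35 ± 0.171 CPM to 7.14 ± 1.57, 7.02 ± 1.95 and 7.92 ± 0.717 (2.41, 2.38 and 2.56, adjusted p = 8.75e-06, 1.38e-05 and 7.51e-06). CLCF1 also rose (0.61, 1.17 and 1.45) and CTF1 fell (-1.92, -1.19 and -2.04), both being ligands of the same family, and CLCF1 was not called at 6 h (0.29) or 24 h (0.54) with library size alone. The shared subunit IL6ST rose at all 3 times (0.94, 0.55 and 0.55), of which library size alone kept the call only at 6 h and gave -0.33 at 24 h.

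LIFR, the partner of IL6ST in the LIF receptor, rose at 6 h (0.77, adjusted p = 0.00436) and not later (0.05 and -0.45), and library size alone gave 0.45 without a call at 6 h and a called -1.34 at 24 h. IL6R rose at 12 h (1.15, adjusted p = 0.00486), a call that library size alone did not make (0.69). SOCS3, a feedback inhibitor of STAT3, rose at 12 h (0.88, adjusted p = 0.00993, not called with library size alone) and at 24 h (1.88, adjusted p = 7.71e-05). PIAS3, another inhibitor of STAT3, fell at all 3 times (-0.82, -0.71 and -1.15).

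All 12 NF-kappaB subunits and kinases were tested. At 6 h 1 rose and 6 fell, at 12 h 1 rose and 5 fell, and at 24 h 0 rose and 4 fell, and with library size alone 0 rose at any of these times while 6, 5 and 12 fell. RELB fell from 13.7 ± 0.942 CPM to 3.72 ± 1.16, 3.02 ± 0.499 and 4.15 ± 1.52 (-1.87, -2.17 and -1.73), and the kinase IKBKB fell too (-1.36, -1.50 and -1.94). NFKB1 was lower only at 24 h (-0.93, adjusted p = 0.00684). RELA, the subunit that most often activates these chemokine genes, changed by 0.03, 0.32 and 0.09, called only at 12 h (adjusted p = 0.049). That call was lost with median-of-ratios scaling in place of TMM (adjusted p = 0.0603). The direction of RELA turned at all 3 times with library size alone (-0.29, -0.15 and -0.83).

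Of 18 tested NF-kappaB feedback genes and other targets, 4 rose and 7 fell at 6 h, 7 rose and 5 fell at 12 h, and 10 rose and 6 fell at 24 h. These rises include CSF2 at 12 h and 24 h and TNF at 24 h. Both passed the filter only through hypoxic libraries, with 2 and 8 reads at 0 h, and their calls add nothing to these counts. Scaled by library size alone, 2 rose and 7 fell, 3 rose and 6 fell, and 4 rose and 6 fell. NFKBIA, the inhibitor that holds NF-kappaB in the cytoplasm, rose from 45.0 ± 3.04 CPM to 243 ± 116, 291 ± 85.6 and 442 ± 136 (2.43, 2.69 and 3.29, adjusted p = 7.91e-05, 5.47e-05 and 1.14e-05). BIRC3, an inhibitor of apoptosis, rose as well (2.60, 2.75 and 2.96). NFKBIZ, a nuclear cofactor, fell from 8.46 ± 0.251 CPM to 1.89 ± 0.526, 1.23 ± 0.266 and 1.15 ± 0.854 (-2.18, -2.79 and -2.84), and the adaptor TRAF1 fell too (-2.40, -1.93 and -2.0). TNFAIP3, a feedback ubiquitin-editing enzyme, was lower only at 6 h (-0.82, adjusted p = 0.0309).

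The list of regulators of short-lived cytokine mRNA held 10 tested genes, of which 6 rose and 2 fell at 6 h, and 4 rose and 2 fell at 12 h and at 24 h. With library size alone 2 rose and 2 fell at 6 h and at 12 h, and 1 rose and 7 fell at 24 h. DUSP1, a phosphatase that acts on p38 and so on the kinase pathway that stabilises these mRNAs, rose from 15.9 ± 0.734 CPM to 390 ± 117, 358 ± 17.3 and 622 ± 208 (4.61, 4.49 and 5.28, adjusted p = 2.76e-07, 5.1e-07 and 1.78e-07). ZFP36, which binds AU-rich elements and promotes decay, changed by 0.32, -0.00 and -0.39 and was not called. Its relative ZFP36L1 rose (0.66, 1.10 and 0.73), called only at 12 h with library size alone, and RC3H2 fell (-0.40, -0.61 and -1.52). The 6 h call of RC3H2 was marginal (adjusted p = 0.0495) and was lost with median-of-ratios scaling in place of TMM (adjusted p = 0.0529).

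**Figure D5:**
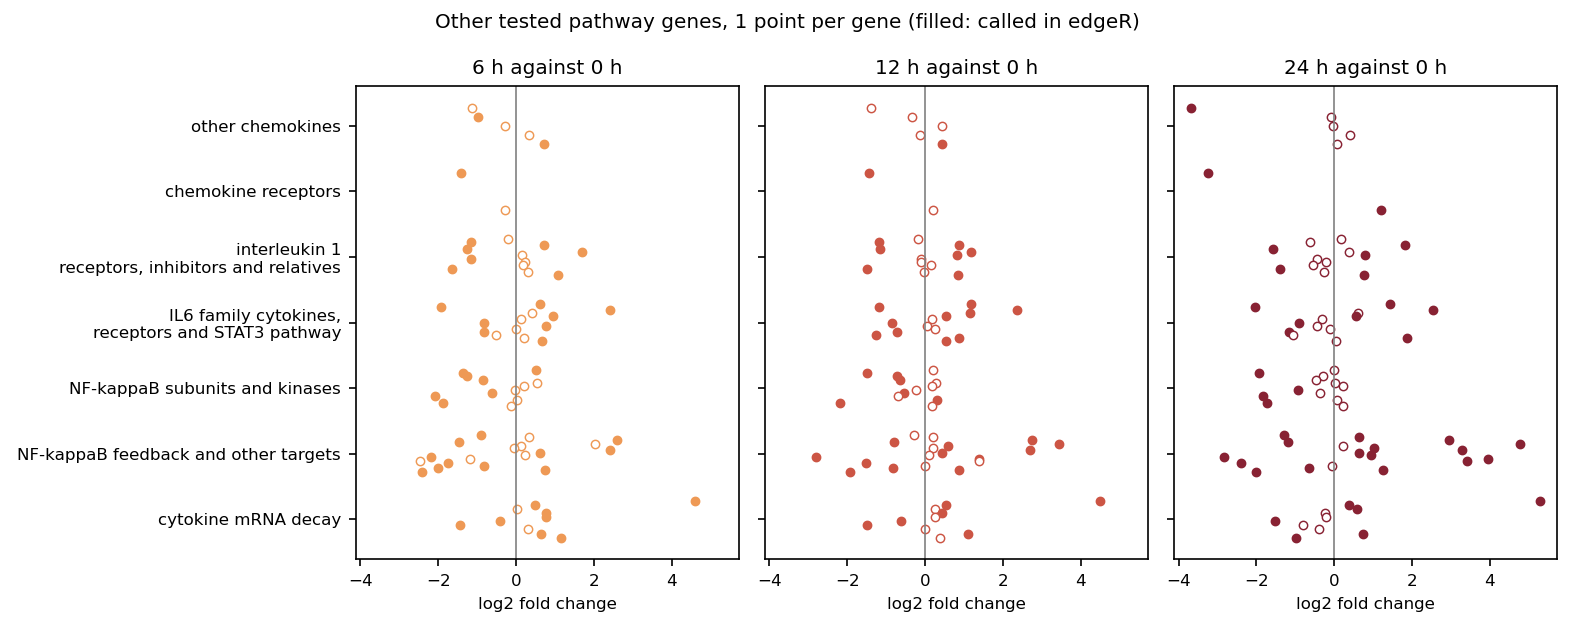
Log2 fold change against 0 h (horizontal axes) of the 72 tested pathway genes at 6, 12 and 24 h, 1 point per gene and 1 row per list, filled where edgeR's adjusted p was under 0.05. Points lie on both sides of 0 in the lists of interleukin 1, IL6 family and NF-kappaB target genes, with DUSP1 farthest to the right at 4.61, 4.49 and 5.28.

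Profiles most like those of the 7 tested genes were sought among 13850 other genes with a symbol, by Pearson's r of log2 CPM over the 11 libraries. These libraries share their time points and depth, and r is given as a description. The closest was HELB for LIF (r = 0.98), OPTN for CXCL8 (0.972), NIPSNAP2 for IL1A (0.967), MACO1 for CXCR4 (0.964), EXOSC8 for CXCL2 (0.936), MAP3K12 for IL1B (0.933) and LIMS1 for CXCL3 (0.907). Next for LIF were MTATP8P1, a copy of a mitochondrial gene, and MCCC2 (both 0.979), for CXCL8 VAMP3 (0.957) and RTTN (0.952), for IL1A CHPT1 (0.963) and KATNA1 (0.959), and for CXCR4 CSRNP1 (0.962) and CTNNA1 (0.959). Next for CXCL2 were RPLP1P6 (0.929) and ANAPC4 (0.925), for IL1B FRRS1 (0.921) and CSNK2A2 (0.916), and for CXCL3 TRMT10A (0.903) and USP16 (0.884). Among the 7 genes themselves r was highest between CXCL8 and IL1A (0.752) and between CXCL2 and IL1A (0.749), 0.595 between CXCL2 and CXCL3, 0.338 between IL1A and IL1B, and lowest between CXCL8 and LIF (-0.781).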

How the data were processed

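The deposited table holds raw read counts per Ensembl gene that the authors made with STAR and featureCounts on GRCh38 after trimming. The settings for strand and for reads with several matches are not given in the sources used here. All 11 columns matched a sample, with 0 unmatched. Triplicates were planned, and the remaining 24 h library was not analysed here.

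Genes were kept by filterByExpr grouped by time (minimum count 10, minimum total 15), which left 19981. edgeR 4.0.16 (R 4.3.3) scaled the counts by TMM and fitted glmQLFit to all 11 libraries with time as the only factor. Benjamini-Hochberg adjustment of the glmQLFTest p-values covered all tested genes, and a gene was called at adjusted p under 0.05. The standard error is the log2 fold change over the square root of F. CPM were computed by edgeR from the TMM-scaled library sizes, and log2 CPM used a prior count of 2. The scripts were tested on simulated data. Counting intervals are exact, the limit that 0 reads allow is set at 3 counts over the group, and both cover counting error only. limma 3.58.1 (voom) and DESeq2 1.42.0 were alternatives to the test, beside other scalings, filters, sets of libraries and a replicate block.

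Positions, exonic lengths and antisense overlaps are from GENCODE 44 on GRCh38, and promoters from RefSeq on GRCh38.p14, where 9 of the 10 genes had an entry. Of 147 listed symbols 146 were matched. The 10 genes and the lists were chosen with earlier results of these data known. From each pathway list, a fixed set of receptors and regulators was named, and otherwise the 2 highest and 2 lowest changes among genes called in 1 direction at all 3 times. Exceptions are marked where they stand. Fold changes published with the study were not used.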

Additional observations from a re-analysis of the deposited data

Results flagged for a closer look

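For 4 genes the change against normoxia differed between 12 h and 24 h by the test of that difference, edgeR's 24 h against 12 h comparison. The difference on the log2 scale was 1.76 for CXCL2 (adjusted p = 0.0251), 2.69 for CXCL8 (adjusted p = 0.0128), 1.54 for IL1A (adjusted p = 0.00301) and -2.01 for LIF (adjusted p = 0.00483). For IL1A the direction against 0 h also turned, from -0.75 to 0.79. All 4 rest on 2 libraries at 24 h that differed widely. When only the 12 h and 24 h libraries were fitted none of the 4 passed, with adjusted p from 0.0658 to 0.12.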

How the results depend on the processing

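Over 35 fitted changes and 19 alternative settings, 633 values were computed: 557 kept their direction and side of the threshold, 24 newly passed it, 25 lost it and 27 turned direction. Of the 35 changes, 23 kept 1 direction throughout. The number of genes called was 4 at 6 h, 12 h and 24 h against 0 h, each time with CXCR4, which had to differ. Requiring at least 10 counts in every library left only IL1A and IL1B and gave 1, 1 and 0, and 1 for 24 h against 12 h. For 24 h against 12 h (4 called), fitting only the compared time points gave 0. Leaving out 1 library gave 3 to 5 at 6 h, 3 to 5 at 12 h, 2 to 4 at 24 h (2 without 24 h replicate 1), 0 to 0 for 12 h against 6 h, and 2 to 4 for 24 h against 12 h (2 without 12 h replicate 2 or 3).

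Directions turned mainly for changes near 0. CXCL8 at 6 h was -0.053 with limma-voom, -0.058 with DESeq2, -0.32 with library size alone, -0.025 without a filter and -0.094 with the replicate block. IL1B at 12 h was 0.0001023 with only the compared time points and 0.003349 with the replicate block. CXCL3 from 6 h to 12 h was 0.012 without a filter, and IL1A at 24 h -0.037 with library size alone. Leaving out 1 library gave -0.71 to 0.24 for CXCL2 and -2.08 to 0.027 for CXCL3 at 24 h, -0.69 to 0.31 for CXCL8 at 6 h, and for IL1B -0.10 to 0.090 at 12 h and -0.73 to 0.38 at 24 h. From 6 h to 12 h it gave -0.54 to 0.51 for CXCL3, -0.13 to 0.35 for IL1A and -0.36 to 0.79 for CXCR4, and from 12 h to 24 h -0.67 to 1.42 for CXCL3, -0.70 to 0.40 for IL1B and -1.78 to 1.89 for CXCR4. The cause was not tested.

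No pairing by replicate number was seen: deviations of same-numbered libraries correlated between -0.156 and 0.207, and those of differently numbered ones between -0.271 and 0.283. With so few libraries at each time this cannot exclude a shared culture or batch. With the replicate block 5, 5 and 4 genes were called at 6, 12 and 24 h, 0 for 12 h against 6 h and 3 for 24 h against 12 h, where CXCL2 lost its call (adjusted p = 0.0586). Depth limits CXCL1, IL6 and CCL20, which passed only without the filter on low counts, where none of their changes was called (adjusted p of 0.334 or more), and CXCR4, whose normoxic level is 1 read.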

Other observations

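PTGS2, which encodes cyclooxygenase 2 and was named after its values were seen, followed the late rise of CXCL8 among the NF-kappaB targets. It was at 2.59, 3.73 and 3.003 CPM at 0 h and at 1.64, 1.00 and 1.46 CPM at 6 h. It was at 12.9, 6.93 and 4.59 CPM at 12 h, and at 83.8 and 12.6 CPM at 24 h. The 24 h change was 3.96 ± 0.60 SE on the log2 scale (adjusted p = 0.000125, quasi-likelihood test of edgeR, Benjamini-Hochberg adjusted), the change at 12 h was 1.38 (adjusted p = 0.0486) and that at 6 h -1.18 (adjusted p = 0.109). As for CXCL8, replicate 1 was the highest library at 12 h and at 24 h, and the 24 h libraries lay far apart.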
